A study of Drosophila melanogaster with 33 samples.

Results

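The genes NimC1, NimC4, Hml, Pxn, crq and drpr, which serve in fly blood cells (haemocytes) or in the uptake of dying cells and bacteria, were followed in the Drosophila melanogaster midgut through metamorphosis. They were taken by gene symbol from the probe annotation of the array platform, and these 6 are among the 9905 named genes among 13141 rows, 1 row for each named gene or unnamed probe. Each of the 6 genes was represented by 1 probe, so no average over probes was needed.

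Midguts of the Canton S strain, with no other allele or treatment named in the labels, were sampled at 11 stages. Counted from puparium formation (0 h), the stages lay 18 and 4 h before it (BPF), at it, and 2, 3, 4, 5, 6, 8, 10 and 12 h after it (APF). The 3 arrays of a stage, lettered a, b and c, came from samples that the labels call independent. On each array, amplified RNA of 1 stage carried Cy5 and a reference carried Cy3, the reference being a pool of 10 of the stages without 10 h APF. Values are log2 ratios of stage to reference, so a difference of 1 between stages is a 2-fold change, and a ratio gives no order of abundance between genes. No sequence is printed, since probe and gene sequences were not used here.

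Haemocytes of the plasmatocyte class are the macrophages of the fly: they take up bacteria and dying cells and secrete much of the basement membrane. Uptake starts when a surface receptor binds its target, passes through adaptor and integrin signals to the actin cytoskeleton, and ends in the lysosome. During metamorphosis the larval midgut epithelium dies and is replaced by cells that grow from progenitors. Corpse receptors such as drpr also act outside haemocytes, in glia and epithelia, whereas Hml is used as a haemocyte marker.

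The 33 arrays held between 7006 and 13966 probe values, and arrays lettered a held fewer (mean 8949) than those lettered b (11998) or c (12486). Across probes, r between arrays of 1 stage was 0.59 to 0.86, and 100 of 495 pairs of arrays of different stages correlated below -0.3. The direction was kept because the labels state the dyes and because, over 7257 probes, the log2 mean ratio over the 10 pooled stages had an SD of 0.117 as deposited and 0.509 with the sign turned. Among the members this mean ratio was nearer to 1 as deposited for NimC4 (1.05 against 6.02 with the sign turned), NimC1, Pxn and drpr, but nearer with the sign turned for Hml (1.06 against 0.998) and crq (1.14 against 0.906), so single genes of narrow range do not settle it. The tissue label could be checked only through ratios. Of 12 measured enterocyte markers with at least 2 values in every stage, 9 were highest at 18 h BPF, and the median of their stage means went from 2.32 at 18 h BPF to -3.98 at 6 h APF.

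The members did not all follow the same course. NimC4, NimC1, Pxn and Hml were highest at 8 h APF, whereas drpr was highest at 2 h APF and crq varied little. By comparison, 8.26% of the 6925 rows with at least 2 values in every stage were highest at 8 h APF. Of NimC4, NimC1, Pxn and Hml, only NimC4 is among those rows. Between the highest and the lowest stage mean lay 67.7-fold for NimC4, 16.0-fold for NimC1, 6.69-fold for Pxn, 4.23-fold for drpr, 2.22-fold for Hml and 1.78-fold for crq. The extremes of NimC1, Pxn, Hml and crq each included a stage with 1 value. Arrays with a value numbered 33 for NimC4, 30 for Pxn, 29 for drpr, 28 for NimC1, 24 for Hml and 20 for crq. The missing values were unevenly spread: NimC1, Pxn and crq each had 1 value at 0 h, Hml had 1 value at 4 h BPF, 2 h and 5 h APF, and crq had none on the 11 arrays lettered a and 1 at 3 h APF. These are whole tissues, so fewer cells of a type and less RNA per cell cannot be told apart.

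**Figure D1:**
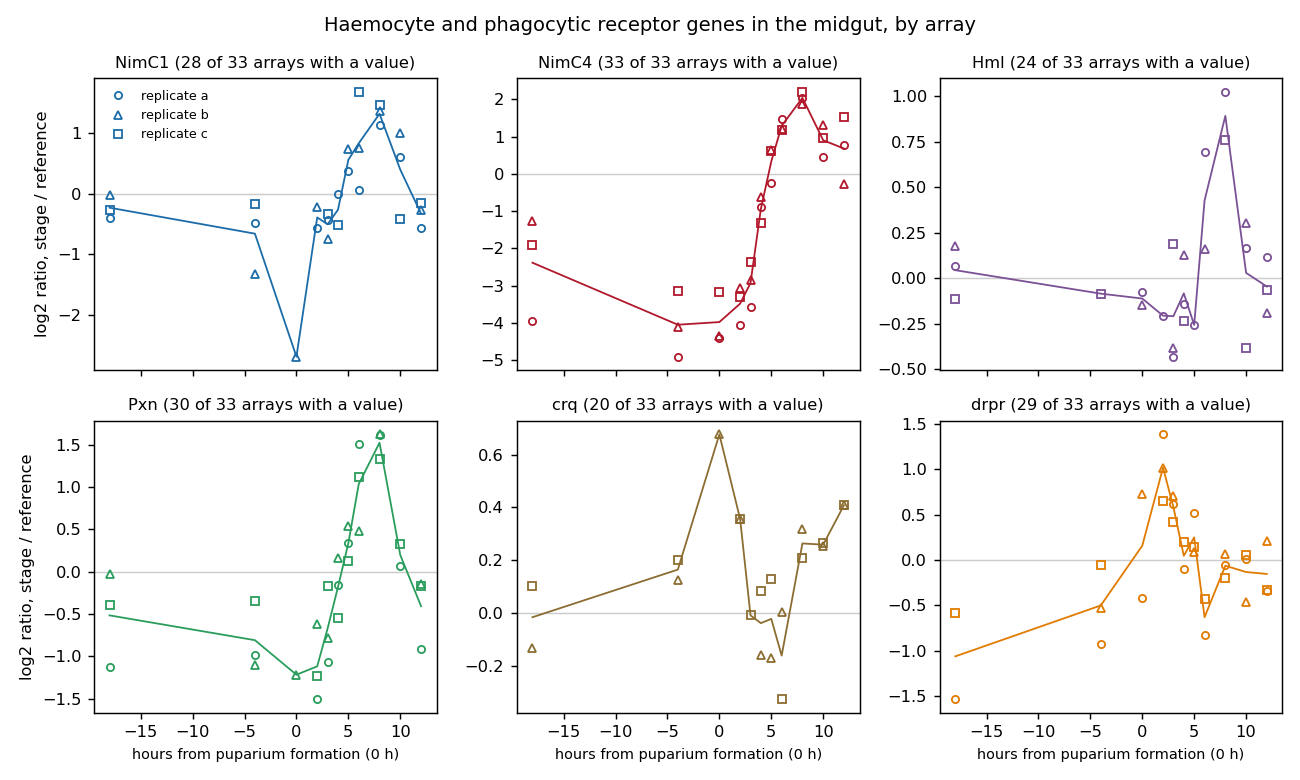
Log2 ratio of stage to reference (y axis, scaled separately for each gene) of the 6 genes against hours from puparium formation (x axis), 1 symbol per array with circles, triangles and squares for replicates a, b and c, and a line through the stage means. NimC4, NimC1, Pxn and Hml reach their highest means at 8 h APF (2.04, 1.31, 1.52 and 0.89), drpr peaks at 2 h APF (1.02), and the single value of NimC1 at 0 h (-2.69) stands below its other 27 values.

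NimC4, also known as simu, encodes a Nimrod receptor that binds dying cells and acts with drpr in embryonic macrophages and glia. Its log2 ratios on arrays a, b and c were -3.95, -1.28 and -1.92 at 18 h BPF. They were -4.90, -4.10 and -3.14 at 4 h BPF. At 0 h they were -4.41, -4.35 and -3.15. The arrays of 4 h BPF and 0 h interleaved, and at 18 h BPF array a lay with them while arrays b and c lay higher.

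From 2 h to 8 h APF the stage mean of NimC4 was higher at each sampled stage than at the one before. Its ratios were -4.06, -3.07 and -3.31 at 2 h, -3.56, -2.85 and -2.38 at 3 h, and -0.88, -0.61 and -1.32 at 4 h APF. They were -0.26, 0.64 and 0.60 at 5 h, 1.47, 1.20 and 1.19 at 6 h, and 2.05, 1.86 and 2.20 at 8 h APF. From 3 h to 8 h APF no array of a stage reached down to the stage before it. The later ratios were 0.44, 1.30 and 0.96 at 10 h and 0.77, -0.27 and 1.53 at 12 h APF, all below the lowest array of 8 h. In the order of stage means, 8 of 10 neighbouring stages overlapped, the exceptions being 8 h against 6 h APF and 5 h against 4 h APF.

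Over the 11 stages NimC4 differed with an adjusted p of 1.42e-12 (moderated F test in limma, Benjamini-Hochberg over 6925 rows). It rose by 5.26 ± 0.51 (SE, n = 3 and 3 arrays) from 0 h to 6 h APF, or 38.3-fold, with an adjusted p of 3.18e-09, the second largest rise of 7628 rows. From 2 h to 6 h APF it rose by 4.77 ± 0.51, with an adjusted p of 2.17e-07 and again the second largest rise, of 8456 rows. At 12 h APF it was still 3.06 ± 0.51 above 18 h BPF (adjusted p = 3.31e-05), or 8.34-fold, with no overlap of the arrays. The change from 6 h to 12 h APF was -0.61 ± 0.51 and was not called (adjusted p = 0.429).

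Before puparium formation NimC4 fell by 1.66 ± 0.51 from 18 h to 4 h BPF (adjusted p = 0.0458), and fell by 1.59 ± 0.51 from 18 h BPF to 0 h (adjusted p = 0.0264). In both cases the arrays overlapped. The call from 18 h BPF to 0 h did not hold with quantile normalization (-1.16), nor on leaving out 18 h BPF replicate b (-1.04), 18 h BPF replicate c (-1.36), 0 h replicate a (-1.37) or 0 h replicate b (-1.40). The call from 18 h to 4 h BPF was lost with quantile normalization, without the filter on missing values, with robust variances and on leaving out 18 h BPF replicate b (-1.11), 18 h BPF replicate c (-1.43), 4 h BPF replicate a (-1.23) or 4 h BPF replicate b (-1.64). It was also lost on leaving out any of 12 arrays of other stages, at adjusted p of 0.0503 to 0.053. The prepupal rise was spread over several steps, and no single step of it was called: the largest was 1.99 ± 0.51 from 3 h to 4 h APF (unadjusted p = 0.000476, adjusted p = 0.464).

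NimC1 encodes a Nimrod receptor of plasmatocytes that binds bacteria. Its ratios were -0.41, -0.03 and -0.26 at 18 h BPF and -0.48, -1.32 and -0.18 at 4 h BPF. At 0 h array b alone had a value, -2.69. Arrays a and b of 2 h APF had -0.57 and -0.22. The values of 2 h APF lay within the range of those before puparium formation.

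At 3 h APF the NimC1 ratios were -0.44, -0.75 and -0.33. At 4 h APF they were -0.01 on array a and -0.52 on array c, and at 5 h APF 0.37 on array a and 0.74 on array b. At 6 h APF they were 0.06, 0.74 and 1.68, and at 8 h APF 1.13, 1.36 and 1.45. The arrays of 5 h, 6 h and 8 h APF were all above 0, and those of 6 h were the most spread out of the course (SD 0.81, n = 3). At 10 h APF the ratios were 0.59, 0.996 and -0.41, and at 12 h APF -0.57, -0.27 and -0.16, back within the range of the arrays before puparium formation. In the order of means, 9 of 10 neighbouring stages overlapped.

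NimC1 rose by 1.22 ± 0.38 from 2 h to 6 h APF (adjusted p = 0.0366), or 2.33-fold, and by 1.06 ± 0.34 from 18 h BPF to 6 h APF (adjusted p = 0.0216). It fell by 1.16 ± 0.34 from 6 h to 12 h APF (adjusted p = 0.0156). All 3 calls were lost without 6 h APF replicate c, the highest array, at 0.80, 0.64 and -0.73. The first was also lost without 2 h APF replicate a (1.04) or b (1.40) and without the filter on missing values (adjusted p = 0.0503), the second without 18 h BPF replicate a (0.97) or c (1.04), and the last without 12 h APF replicate a (-1.04). At 12 h APF NimC1 differed from 18 h BPF by -0.10 ± 0.34 (adjusted p = 0.896). With the single value of 0 h admitted, 6 h APF lay 3.51 above it, a difference that rests on 1 array at 0 h.

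NimC1 and NimC4 lie on chromosome arm 2L, with 9 protein-coding genes between them in the RefSeq annotation, 2 of them the further Nimrod genes NimC2 and NimC3. Between 2 h and 6 h APF NimC3 rose by 2.21 ± 0.42 (adjusted p = 0.000865), whereas NimC2 changed by -0.83 ± 0.55 (adjusted p = 0.355). Of the other 7 genes between them 6 were measured, and 2 of these rose: bgm by 1.87 ± 0.27 (adjusted p = 1.39e-05) and hll by 1.25 ± 0.27 (adjusted p = 0.00202). Of all 8456 rows, 4.87% were called higher in this interval. Both encode acyl-CoA synthetases, and they are named here after their values were seen. Genes that moved up from 2 h to 6 h APF thus lay among others in that stretch that were not called.

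Pxn encodes peroxidasin, a secreted peroxidase that cross-links collagen IV in basement membranes and is made by haemocytes. Its ratios were -1.12, -0.02 and -0.40 at 18 h BPF, -0.98, -1.10 and -0.34 at 4 h BPF, and -1.22 on array b at 0 h. At 2 h APF they were -1.51, -0.62 and -1.23, and at 3 h APF -1.07, -0.78 and -0.16. At 4 h APF they were -0.16, 0.17 and -0.55, and at 5 h APF 0.35, 0.54 and 0.13. All Pxn values before 4 h APF lay below 0, and all of those from 5 h to 10 h APF above it.

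The highest Pxn means were those of 6 h and 8 h APF. The ratios were 1.51, 0.48 and 1.12 at 6 h and 1.62, 1.62 and 1.33 at 8 h APF. Arrays a and c of 10 h APF had 0.07 and 0.32, and the arrays of 12 h APF had -0.91, -0.14 and -0.17. The course thus returned at 12 h APF to the range of 18 h BPF. All 10 pairs of stages that neighbour each other in the order of means overlapped.

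Pxn rose by 2.15 ± 0.31 from 2 h to 6 h APF (n = 3 and 3 arrays, adjusted p = 2.03e-05), or 4.45-fold, rank 51 of the 8456 rises. From 6 h to 12 h APF it fell by 1.44 ± 0.31 (adjusted p = 0.00111), and between 18 h BPF and 12 h APF it differed by 0.11 ± 0.31 (adjusted p = 0.871). It was 1.55 ± 0.31 higher at 6 h APF than at 18 h BPF (adjusted p = 0.00031). The fall of -1.33 ± 0.34 from 8 h to 10 h APF (n = 3 and 2, adjusted p = 0.0468) was lost with arrays centred on their medians (-1.29), with quantile normalization (-1.12), without the filter (adjusted p = 0.0524), with a replicate block (-1.27) and on leaving out any of the 6 arrays of these stages (-1.45 to -1.20) or any of 10 arrays of other stages (adjusted p = 0.0509 to 0.0582).

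Hml encodes hemolectin, a large secreted protein of the haemolymph clot. Between 18 h BPF and 5 h APF its 14 values lay between -0.43 and 0.19. At 6 h APF arrays a and b had 0.69 and 0.16, and at 8 h APF arrays a and c had 1.03 and 0.76. At 10 h APF the ratios were 0.17, 0.31 and -0.38, and at 12 h APF 0.12, -0.19 and -0.06. The 2 values of 8 h APF were higher than every other value of Hml. No change of Hml was called by limma in 9 comparisons, 1 of them with an unadjusted p under 0.05. It differed by 0.54 ± 0.26 from 0 h to 6 h APF (n = 2 and 2, adjusted p = 0.146), by -0.47 ± 0.24 from 6 h to 12 h APF (adjusted p = 0.168) and by -0.86 ± 0.24 from 8 h to 10 h APF (adjusted p = 0.0832). With single values admitted the F test over all stages gave an adjusted p of 0.033 for Hml, in which stages with 1 array are assumed to vary like the others.

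drpr encodes Draper, the fly relative of the nematode corpse receptor CED-1, which acts in macrophages, glia and epithelia. Its ratios were -1.54 and -0.59 on arrays a and c at 18 h BPF and -0.92, -0.53 and -0.06 at 4 h BPF. Arrays a and b of 0 h had -0.42 and 0.73. At 2 h APF the ratios were 1.39, 1.02 and 0.65. Every array of 2 h APF lay above every array of 18 h and 4 h BPF, and the pair of arrays at 0 h disagreed in sign.

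After 2 h APF drpr came down again. Its ratios were 0.62, 0.71 and 0.42 at 3 h, -0.10 and 0.19 on arrays a and c at 4 h, and 0.52, 0.09 and 0.14 at 5 h APF. Arrays a and c of 6 h APF had -0.83 and -0.43. Both lay below every array from 0 h to 5 h APF. The later ratios were -0.05, 0.07 and -0.20 at 8 h, 0.01, -0.46 and 0.06 at 10 h, and -0.34, 0.20 and -0.33 at 12 h APF. All 10 neighbouring pairs in the order of means overlapped.

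Over all stages drpr differed with an adjusted p of 0.000131. It rose by 1.22 ± 0.34 from 18 h BPF to 0 h (n = 2 and 2, adjusted p = 0.0122), or 2.33-fold, a call that was lost without 18 h BPF replicate a (0.74) or 0 h replicate b (0.65). Between 2 h and 6 h APF drpr fell by 1.65 ± 0.31 (n = 3 and 2, adjusted p = 0.000699), to 0.319 of the earlier level, rank 130 of the 8456 falls. The change from 0 h to 6 h APF was -0.79 ± 0.34 (adjusted p = 0.0989), and it was called without 0 h replicate a (-1.36, adjusted p = 0.00952). At 12 h APF drpr was 0.91 ± 0.31 above 18 h BPF (adjusted p = 0.0447). That call was lost with a replicate block (0.87) and without 18 h BPF replicate a (0.43) or any array of 12 h APF (0.73 without replicate b), without any of 10 arrays of other stages (adjusted p = 0.0501 to 0.0519), and with the b array of 18 h BPF, which has no drpr value, taken out of the fit (adjusted p = 0.0519).

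crq encodes Croquemort, a CD36-type receptor for dying cells on embryonic macrophages. Its 20 values, all from arrays b and c, lay between -0.33 and 0.68, the highest being the single value of 0 h. Both arrays of 2 h APF had 0.36 and both of 12 h APF 0.41, above the arrays of 6 h APF at 0.01 and -0.33. The arrays of 8 h APF, at 0.32 and 0.21, and of 10 h APF, at 0.25 and 0.27, lay between them. No change of crq was called by limma in 10 comparisons, of which 2 had an unadjusted p under 0.05. The nearest were 0.57 ± 0.20 from 6 h to 12 h APF (n = 2 and 2, adjusted p = 0.0566) and -0.52 ± 0.20 from 2 h to 6 h APF (adjusted p = 0.113). The first was called with arrays centred on their medians (0.62), with a replicate block (0.57) and without 6 h APF replicate b (0.73). With the single value of 0 h admitted, 6 h APF differed from it by -0.84, which rests on 1 array at 0 h. At most 2 arrays per stage stand behind each mean of crq.

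Counted over the members and set beside all rows, the interval from 2 h to 6 h APF held most calls. There, 3 of 5 tested members rose and 1 fell, whereas 4.87% of 8456 rows were called higher and 7.17% lower, and the median change was 1.22 over the members and -0.08 over all rows. From 0 h to 6 h APF 1 of 3 tested members rose and none fell, beside 13.4% of rows called higher and 11.3% lower. From 18 h BPF to 0 h 1 of 3 rose and 1 fell, beside 9.98% and 7.28%. From 6 h to 12 h APF none of 6 rose and 2 fell, beside 8.48% and 13.2%.

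Against the late larval midgut of 18 h BPF, 3 of 6 members were higher and none lower at 6 h APF, beside 16.5% of 8316 rows higher and 9.86% lower. At 12 h APF 2 of 6 were higher and none lower, beside 9.16% and 8.23% of 11916 rows. Both members that could be tested over all 11 stages were called, as were 56.4% of the 6925 rows. Among the steps between neighbouring stages, 1 of 5 members fell from 18 h to 4 h BPF, beside 2.79% of rows, and 1 of 6 fell from 8 h to 10 h APF, beside 0.638%. In the 4 steps between 2 h and 6 h APF limma called 0 rows of any kind. An unadjusted p below 0.05 was found for 235 of 10527, 303 of 10736, 345 of 10940 and 716 of 8427 rows. Unchanged rows would give a share near 0.05, and only the last step, from 5 h to 6 h APF, exceeded it. The comparisons that share a stage share its arrays, so their values are not independent.

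**Figure D2:**
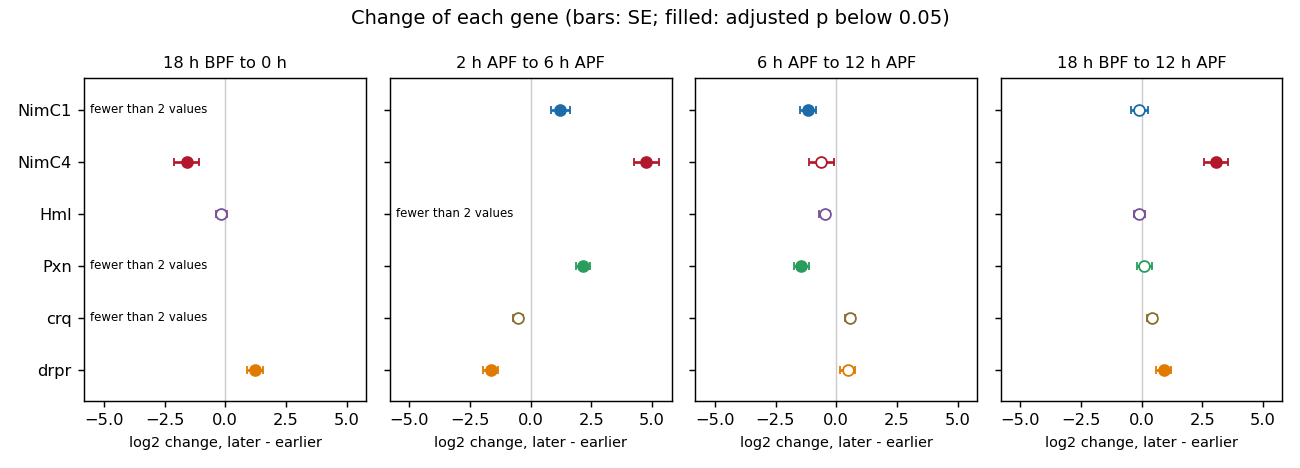
Log2 change of each gene, later minus earlier stage (x axis), in 4 intervals, with bars for the SE from limma, filled points for an adjusted p below 0.05, and the words "fewer than 2 values" where a stage had too few arrays. From 2 h to 6 h APF NimC4, Pxn and NimC1 lie right of 0 (4.77, 2.15 and 1.22) and drpr left of it (-1.65), while from 18 h BPF to 12 h APF NimC4 (3.06) and drpr (0.91) are filled.

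Over single arrays, the 4 genes that peaked at 8 h APF moved together. Pearson's r was 0.85 between NimC4 and Pxn (30 arrays), 0.81 between NimC1 and Pxn (27), 0.75 between Hml and Pxn (22) and 0.74 between NimC1 and NimC4 (28). The lowest of their 6 pairs was NimC4 with Hml, at 0.57 over 24 arrays. drpr correlated with these 4 genes at -0.41 to -0.17 and crq at -0.52 to -0.25, while crq and drpr correlated at 0.43 over 17 arrays. The points share arrays and the pooled reference, and the 3 arrays of a stage share the stage, so these values describe likeness of course and carry no test.

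**Figure D3:**
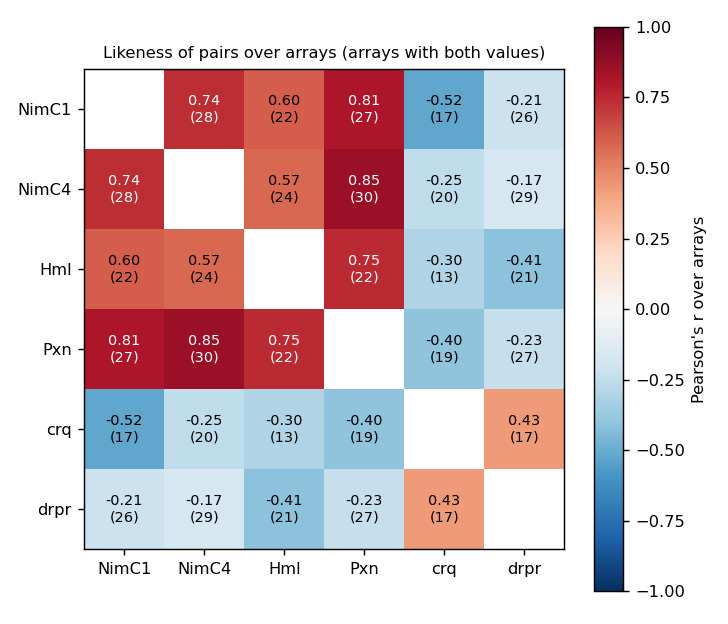
Pearson's r over arrays for each pair of the 6 genes (rows and columns), coloured from -1 (blue) to 1 (red), with the number of arrays that hold both values in parentheses. NimC1, NimC4, Hml and Pxn form a red block (0.57 to 0.85), and their pairs with crq and drpr are blue (-0.52 to -0.17).

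Among 5526 or 5527 named genes with at least 2 values in every stage, those whose 11 stage means were most like a member's were ranked by Pearson's r. They were CG9372, Pglym78 and r-l for NimC4 (each 0.97), sut1 (0.94), CG17065 and GC1 (each 0.93) for NimC1, and mthl2, CG8539 (each 0.99) and CG4115 (0.97) for Pxn. For Hml they were nAChRbeta3 (0.96), dyl (0.93) and NdufV3 (0.91). For drpr they were SH3PX1 (0.96), Snx6 (0.95) and CG12025 (0.94), all highest at 2 h APF and lowest at 18 h BPF as drpr was. For crq they were Whamy (0.92), smg (0.905) and CG3270 (0.87). SH3PX1 and Snx6 both encode sorting nexins, proteins of membrane traffic. With 11 points and single values in some stages of NimC1, Hml, Pxn and crq, such correlations rank likeness only.

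Other markers of plasmatocytes gave the members a frame. Of 16 listed genes 15 were measured. From 2 h to 6 h APF 3 of 9 tested rose and none fell, with a median change of 0.85, against 4.87% of all rows called higher. The risers were Col4a1, a collagen IV chain, by 2.60 ± 0.58, Pvr, the receptor that guides and sustains haemocytes, by 1.39 ± 0.22, and Glt, a secreted glutactin, by 1.06 ± 0.30. The call for Glt was lost without 2 h APF replicate a (0.79) or 6 h APF replicate c (0.85). From 0 h to 6 h APF the risers were the scavenger receptor Sr-CI, by 3.56 ± 0.60, Col4a1, by 3.45 ± 0.58, and Pvr, by 1.89 ± 0.22, or 3 of 6 tested, beside 13.4% of all rows higher. From 6 h to 12 h APF 2 of 9 fell, beside 13.2% of all rows lower: Pvr by 1.48 ± 0.22 and Col4a1 by 1.87 ± 0.58, the latter call being lost without 6 h APF replicate c (-1.70) or 12 h APF replicate a (-1.65) or b (-1.87).

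The marker courses were not all the same. The mean of Pvr was highest at 8 h APF (1.65 ± 0.07, SD, n = 3), as was that of Col4a1 (1.96 ± 0.24) and NimC3 (1.29 ± 0.31), which places them with NimC4, NimC1 and Pxn. Sr-CI stood at -2.57 ± 0.46 at 0 h (n = 2) and already at 0.14 ± 0.49 at 2 h APF. Of the 6 markers with at least 2 values in every stage, 3 were highest at 8 h APF. The other highest stages were 3 h, 6 h and 10 h APF. Listed markers without such a rise included srp, at 0.23 at 2 h and 0.16 at 6 h APF (n = 2 and 2), ush, at 0.13 and 0.15, and Tig, at 0.12 and 0.16. The means of Sr-CI, vkg and Idgf3 were higher at 6 h than at 2 h APF, but these changes were not called. Among markers with 1 array at 6 h APF, Ppn (0.04 to -0.17) and Idgf2 (0.15 to -0.44) were lower there than at 2 h APF. The others, gcm, Idgf1 and eater, were higher. Idgf3 was highest at 10 h APF (0.78), and eater had 1 value at 8 h APF, -0.01. The median over the 6 markers with at least 2 values in every stage was -1.20 at 4 h BPF, -0.48 at 2 h, 0.50 at 6 h, 1.15 at 8 h and -0.53 at 12 h APF. Between 2 h and 6 h APF this median went up as NimC4, NimC1 and Pxn rose, whereas drpr fell, and at 12 h APF NimC4 still had a mean of 0.68. The part of these markers in the changes of the members was not tested. Pvr and Col4a1 are also made outside haemocytes.

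**Figure D4:**
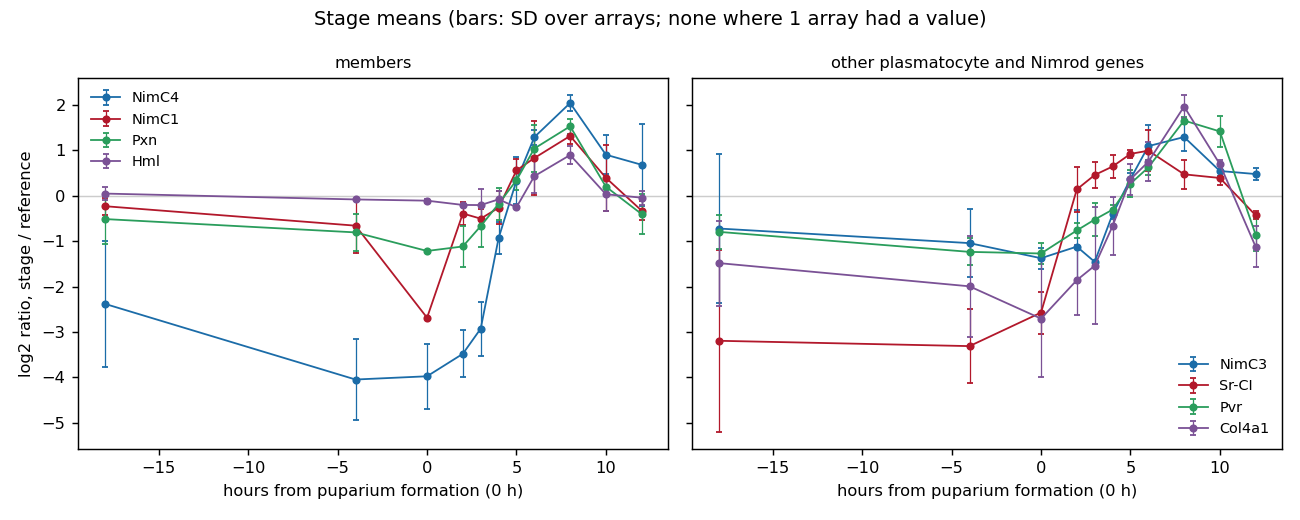
Stage means of log2 ratios (y axis, bars for the SD over arrays) against hours from puparium formation (x axis) for 4 of the genes followed here (left) and for NimC3, Sr-CI, Pvr and Col4a1 (right). All but Sr-CI (highest at 6 h APF, 0.99) peak at 8 h APF, and NimC4 spans the widest range of the left panel, from -4.05 to 2.04. Listed markers without a called rise, such as srp and ush, are not drawn.

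Of 9 further Nimrod genes 6 were measured and 4 could be tested from 2 h to 6 h APF. NimC3 alone was called, beside 4.87% of all rows higher and 7.17% lower. It was also higher at 6 h APF than at 0 h (2.47 ± 0.47) and than at 18 h BPF (1.81 ± 0.47). The last call was lost without 18 h BPF replicate a (0.66). From 6 h to 12 h APF limma called 0 of 4, and 0 had an unadjusted p under 0.05. Among 13 further scavenger and CD36-type receptors 9 were measured, and from 2 h to 6 h APF 2 of 6 fell and none rose, beside 7.17% of all rows lower, with a median change of -0.66. These were santa-maria, a CD36-type receptor of carotenoid uptake, by 1.51 ± 0.28, and Sr-CIV, by 0.96 ± 0.27. The call for Sr-CIV was lost without 2 h APF replicate b (-0.76) or 6 h APF replicate c (-0.67). The CD36-type gene emp rose by 2.21 ± 0.25 from 6 h to 12 h APF and had its highest mean at 12 h APF (2.07), a stage at which crq, of the same family, stood at 0.41.

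Genes of engulfment signalling were called in the direction of drpr in 2 of the 3 intervals in which drpr was called, and in both directions in the other. Of 23 listed genes 11 were measured, and 4 had their highest mean at 0 h and 3 at 2 h APF. From 18 h BPF to 0 h 3 of 11 rose and none fell, beside 9.98% of all rows higher and 7.28% lower: prtp, encoding pretaporter, a ligand of Draper, by 1.35 ± 0.21, scb, an alpha integrin, by 1.23 ± 0.26, and Ced-12, the fly ELMO, by 1.12 ± 0.19. Between 2 h and 6 h APF none rose and 4 of 11 fell, beside 4.87% of all rows higher and 7.17% lower. They were Itgbn, the beta integrin that partners scb in uptake, by 1.53 ± 0.32, ced-6, the adaptor of Draper, by 1.46 ± 0.42, scb by 1.42 ± 0.26 and prtp by 0.88 ± 0.21. The call for ced-6 was lost with quantile normalization (-1.15) and without 2 h APF replicate a (-1.05) or c (-1.33) or 6 h APF replicate b (-1.35).

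From 18 h BPF to 12 h APF, when drpr rose by 0.91, Itgbn fell by 2.62 ± 0.28 (adjusted p = 5.65e-08) and scb rose by 0.79 ± 0.26 (adjusted p = 0.0331), 2 calls among 11 genes beside 9.16% of all rows higher and 8.23% lower. The call for scb was lost without 18 h BPF replicate b (0.65) or c (0.79) or any array of 12 h APF (0.76 to 0.84). From 0 h to 6 h APF 5 of 11 fell, beside 11.3% of all rows lower, with ced-6 down by 2.30 ± 0.42 and Itgbn by 1.68 ± 0.32, and none rose. Itgbn went on falling, by 1.26 ± 0.32 from 6 h to 12 h APF (lost without 6 h APF replicate c, -1.12), and at 12 h APF its mean was -2.08 ± 0.53. The mean of scb at 12 h APF was 0.03 ± 0.08, beside -0.15 ± 0.31 for drpr. Ced-12 had a mean of 0.42 ± 0.30 at 6 h APF and fell by 0.83 ± 0.19 to 12 h APF.

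**Figure D5:**
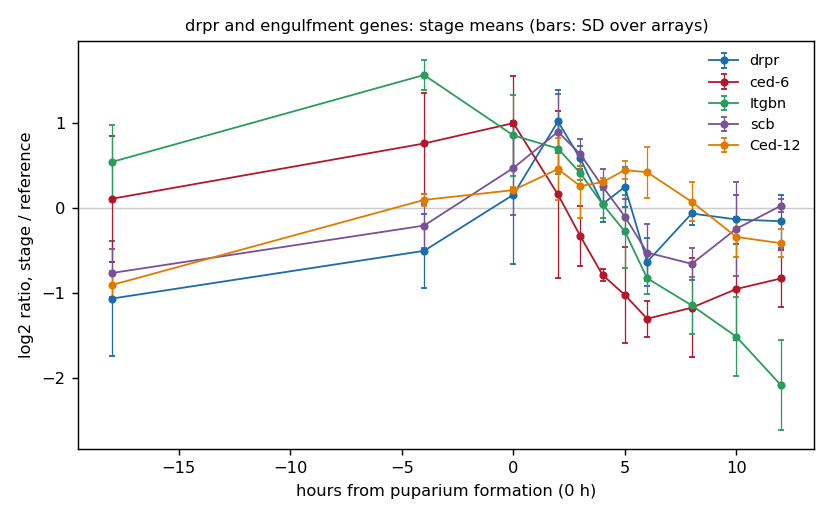
Stage means of log2 ratios (y axis, bars for the SD over arrays) against hours from puparium formation (x axis) for drpr and 4 genes of engulfment signalling. drpr (1.02) and scb (0.90) are highest at 2 h APF, ced-6 is highest at 0 h (0.999), Itgbn falls to -2.08 at 12 h APF, and Ced-12 lies above 0 from 4 h BPF to 8 h APF.

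Genes of phagosome maturation and degradation showed no call by limma from 2 h to 6 h APF among 11 tested, of 15 listed (median change -0.25), and 2 had an unadjusted p under 0.05. From 18 h BPF to 0 h 3 of 8 rose and 1 fell, beside 9.98% and 7.28% of all rows, led by the small GTPase Rab14 (1.21 ± 0.27). From 0 h to 6 h APF 2 of 9 fell, beside 11.3% of all rows: the proteases CtsB by 1.21 ± 0.23 and cathD by 0.70 ± 0.25. The call for cathD was lost with quantile normalization (-0.55), without the filter on missing values (adjusted p = 0.0533) and without 0 h replicate a (-0.69) or b (-0.64) or 6 h APF replicate a (-0.55) or c (-0.67). Basement membrane genes, which share Col4a1 with the plasmatocyte list, rose in 3 of 8 tested from 2 h to 6 h APF, beside 4.87% of all rows (median change 0.93). SPARC, a collagen-binding protein secreted by haemocytes and fat body, rose by 3.34 ± 0.31 and Timp, a metalloprotease inhibitor, by 1.37 ± 0.26. From 6 h to 12 h APF 3 of 9 fell and 1 rose, with a median change of -0.64, beside 13.2% of all rows lower and 8.48% higher. Col4a1 fell as given above, Timp fell by 1.09 ± 0.26, and LanB2, a laminin chain, fell by 0.89 ± 0.31. SPARC rose further, by 1.38 ± 0.31, a call lost under quantile normalization (0.86). The call for LanB2 was lost with arrays centred on their medians (-0.84), with quantile normalization (-0.95), without the filter on missing values, on leaving out any of the 6 arrays of these stages (-0.9996 to -0.78) and on leaving out any of 8 arrays of other stages (adjusted p = 0.0505 to 0.0533).

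Markers of other cell types were counted over the same interval, 2 h to 6 h APF, in which NimC4, Pxn and NimC1 rose. Of all rows, 4.87% were called higher and 7.17% lower there. None of 3 tested fat body markers (median change -0.28), none of 6 visceral muscle markers (-0.20) and none of 4 enteroendocrine markers (0.16) was called by limma in either direction, and 0 of these 13 had an unadjusted p under 0.05. Of 4 crystal cell and lamellocyte markers 1 fell, peb by 0.98 ± 0.25 (lost without 6 h APF replicate c, -0.76). Of 2 progenitor markers 1 fell, esg, the transcription factor Escargot, by 0.81 ± 0.27 (adjusted p = 0.0459). That call was lost with arrays centred on their medians (-0.75), with quantile normalization (-0.60), without the filter on missing values, without 2 h APF replicate a (-0.66) or c (-0.78) or 6 h APF replicate a (-0.48), and without any of 13 arrays of other stages (adjusted p = 0.05 to 0.0533). Of 12 enterocyte markers 3 fell and none rose (-0.90). Of 12 tested between 18 h BPF and 6 h APF 9 fell and none rose, with a median change of -6.34. In that longer interval 16.5% of all rows were called higher and 9.86% lower. The ratios are relative to each sample's amplified RNA, and what the loss of enterocyte transcripts contributes to the ratios of other genes was not tested.

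In the interval from 18 h BPF to 0 h, in which drpr rose and NimC4 fell, markers of several other cell types were called too. The counts stand beside 9.98% of all rows called higher and 7.28% called lower. Visceral muscle markers fell in 4 of 7 tested and none rose, with a median change of -0.85, led by the myosin light chain gene Mlc2, which fell by 2.47 ± 0.30. Enterocyte markers fell in 6 of 12 and none rose (median change -2.68). Fat body Fbp1, encoding a receptor for storage proteins, rose by 2.12 ± 0.61 (adjusted p = 0.0125), or 1 of 2 tested, a call lost without 18 h BPF replicate a (1.58). Of 2 progenitor markers esg rose, by 0.95 ± 0.30 (adjusted p = 0.024), a call lost without 18 h BPF replicate a (0.87) or c (1.04) or 0 h replicate b (0.84) or c (0.79). Of 7 crystal cell and lamellocyte markers 2 rose, peb by 1.22 ± 0.27 and msn by 0.86 ± 0.29, the latter call being lost without 18 h BPF replicate b (0.93) or c (0.66) or any array of 0 h (0.78 to 0.91). Limma called 0 of 5 enteroendocrine markers and 0 of 9 plasmatocyte markers, of which 0 and 3 had an unadjusted p under 0.05. The part of these markers in the changes of drpr and NimC4 was not tested.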

How the data were processed

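Per the labels, RNA of 33 midgut samples was amplified by in vitro transcription and hybridized, Cy5 for the stage and Cy3 for the pooled reference, to 2-colour arrays. The deposited values were taken as log2 ratios of stage to reference, as the authors deposited them. Base and direction were inferred from the SD over 7257 probes of the log2 mean ratio over the 10 pooled stages. For direction, it was 0.117 in base 2 against 0.509 with the sign turned. For the base, it was 0.204 in base e and 1.02 in base 10 with the sign as deposited. No other base was tried. How backgrounds were corrected and arrays normalized is not given in the sources used here. Precision is limited by the number of arrays.

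Probes were named through the platform annotation and RefSeq (Release 6 plus ISO1 MT, for names and gene order only); 10828 probes had 1 gene, 227 several and 3009 were not in the annotation. Probes of a gene were averaged. A linear model with 1 mean per stage was fitted to all arrays with limma 3.58.1 in R 4.3.3 (statmod 1.5.0), with moderated variances, a minimum of 2 values per stage compared, and Benjamini-Hochberg adjustment over all rows at a threshold of 0.05. The procedure was run on simulated data with noise independent between arrays. Such data lack the likeness of arrays of the same letter, so they cannot show how the model performs under it. Figures were drawn with Matplotlib 3.10.9 and tables made with pandas 2.3.3 and NumPy 2.4.6 in Python 3.11.15.

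The members, the 12 gene lists and the comparisons were chosen with earlier results of these data known. Named were the 6 members, the 3 named genes most like each, up to 3 called genes per list, comparison and direction with the largest change, and genes behind counts of 5 or fewer. Alternatives were median centring, quantile normalization, other filters on missing values, a replicate block, robust variances, single probes and each array left out.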

Additional observations from a re-analysis of the deposited data

How the results depend on the processing

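The changes of single members and their F tests were followed under the alternatives, each of the 33 arrays left out in turn included. Followed were the F tests and longer intervals tested in the main fit, and those steps between neighbouring stages that it called. Of these values, 1220 kept their side of the threshold, 71 lost the call and 4 gained one. Calls gained at other steps, or in comparisons that the main fit left untested, are not in these counts. No followed change that was called in either fit reversed. Direction was compared only there. Changes called in neither fit could turn sign, such as Pxn from 18 h BPF to 12 h APF (-0.20 to 0.36). Of the losses, 32 came from leaving out an array of a stage not compared, with the change itself unaltered: 12 for NimC4 from 18 h to 4 h BPF, 10 for Pxn from 8 h to 10 h APF and 10 for drpr from 18 h BPF to 12 h APF. The rises of NimC4 from 0 h (5.04 to 5.88) and from 2 h to 6 h APF (4.48 to 5.37), those of Pxn to 6 h APF and its fall to 12 h APF, and the fall of drpr from 2 h to 6 h APF (-1.85 to -1.45) were called under every alternative in which they could be tested.

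Without the filter on missing values the members called went from 2 to 5 over all stages and from 1 to 4 from 0 h to 6 h APF; the added calls use stages with 1 array, assumed to vary like the others. With rows complete on all arrays, which leaves NimC4, they were 1 over all stages, 1 from 18 h BPF to 0 h, 0 from 6 h to 12 h APF, 1 from 2 h to 6 h APF, 1 from 18 h BPF to 6 h APF, 1 from 18 h BPF to 12 h APF and 1 among the steps. Quantile normalization gave 1 from 18 h BPF to 0 h and 1 among the steps, and median centring and robust variances each gave 1 among the steps. Under quantile normalization neither step call of the main fit was kept: NimC4 from 18 h to 4 h BPF (-1.35) and Pxn from 8 h to 10 h APF (-1.12). The 1 step call there was thus a gained one, of a step not followed singly. Leaving out 1 array at a time gave 2 to 2 over all stages, 0 to 2 from 18 h BPF to 0 h, 1 to 2 from 0 h to 6 h APF, 1 to 3 from 6 h to 12 h APF, 3 to 4 from 2 h to 6 h APF, 2 to 3 from 18 h BPF to 6 h APF, 1 to 2 from 18 h BPF to 12 h APF, and 0 to 3 among the steps. In these fits a stage left with 1 array is assumed to vary like the others.

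With the replicate letter as a block the count was 1 from 18 h BPF to 12 h APF (2 without it), 1 among the steps (2 without it) and 3 from 6 h to 12 h APF (2 without it), and unchanged in the other comparisons. In the labels, arrays of the same letter share only that letter. In the values they shared more: deviations of arrays of the same letter correlated at a median of 0.11 (over 0.1 in 87 of 165 pairs). Those of different letters correlated at -0.05, and 30 of 33 arrays correlated best with their own letter. This comes from the data and not from the design. The main model treats arrays of a letter as independent, and what they share was not tested. Each member rests on 1 probe, and values missing on some arrays leave comparisons with 0 h untested for NimC1, Pxn and crq.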
